A study of Mus musculus with 6 samples.

Results

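Chromosome 11 of C2C12 cells, a mouse line of myoblasts from skeletal muscle, was described here through the 500 kb bins that carried Hi-C data in the 3 conditions of the study. Of the 244 bins named for this chromosome in the deposited matrices, 237 had data in all 3 conditions, among 4727 such bins on the 19 autosomes and 5019 in the whole genome. A bin counted as having data when the diagonal of the matrix exceeded 0.5. The diagonal was either 0 or 1, so no bin lay close to that limit. The 7 bins without data formed a single block at the centromeric end, chr11:1-3500000 (mm10), and the 237 remaining bins ran without a gap from chr11:3500001 to position 122000000.

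Hi-C joins and sequences pairs of DNA fragments that lie close together in the nucleus, here after digestion with HindIII. Myoblasts were plated at low density and harvested after 72 h of proliferation in 10% fetal bovine serum (day 0). Myotubes were plated at high density, switched to 2% horse serum and harvested on day 3, when these cultures still held some myoblasts. AraC-treated myotubes went on in the same medium with 10 µg/ml of AraC (cytosine arabinoside, which kills cells that replicate their DNA) until day 7. AraC was meant to remove undifferentiated myoblasts, and the paper describes their removal as apparent. In its day 7 counts part of the nuclei still lay outside myosin-positive cells. All cultures were of this 1 line, with 2 replicate libraries per condition, grown from separate frozen vials that were plated on separate days. The authors pooled both replicates before making each matrix, so every condition contributed 1 value per bin. There was thus no replicate spread, no test between conditions and no SD for any value below, and the reads behind a bin are unknown. In the paper, whole matrices of the myoblast replicates correlated less with each other than those of either kind of myotubes. That correlation was only slightly above those between myoblasts and myotubes. The paper's pooled read pairs were most numerous for myotubes and fewest for AraC-treated myotubes. Plating density, medium, days in culture, AraC, the share of residual myoblasts and sequencing depth changed along with the cell state and cannot be told apart from it.

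Chromatin separates into an A compartment, open and rich in genes, and a B compartment, closed and poor in genes. Bins of the same compartment contact each other across long distances, so their interaction profiles correlate, which gives a correlation matrix its plaid pattern. The first principal component (PC1) of that matrix follows the plaid. Here PC1 was taken from the centred block of the 237 bins in each condition, divided by its standard deviation (SD) over those bins, and signed so that A (above 0) went with more transcription start sites of protein-coding genes. Mouse chromosome 11 is among the gene-dense chromosomes and its distal portion corresponds to human chromosome 17. Its members include the *Myh* cluster of skeletal muscle myosin heavy chains, the *Hoxb* genes, the type I keratins and *Trp53*.

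The promoters below stand at genes in the bins on which the account of change turns. *Prkca* (protein kinase C alpha), *Axin2* (a negative regulator and target of Wnt signalling) and *Gna13* (a G protein alpha subunit) lie in the run of bins with the largest rise of PC1. *Stc2* (stanniocalcin 2, a secreted glycoprotein) lies in the bin whose profile correlated least from myoblasts to AraC-treated myotubes, and *Myh3* (embryonic myosin heavy chain) in the bin of the *Myh* cluster. Each sequence is the 250 bases before the annotated start on the gene's own strand, from RefSeq (GRCm38.p6, the same assembly as mm10), with every CG dinucleotide in capitals.
Prkca, chr11:108343889-108344138, minus strand: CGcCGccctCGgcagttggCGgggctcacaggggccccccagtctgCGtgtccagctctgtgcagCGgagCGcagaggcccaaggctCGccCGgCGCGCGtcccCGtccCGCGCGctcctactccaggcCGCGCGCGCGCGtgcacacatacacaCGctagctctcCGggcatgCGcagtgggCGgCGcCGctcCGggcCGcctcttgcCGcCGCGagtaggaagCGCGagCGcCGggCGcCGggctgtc
Axin2, chr11:108920099-108920348, plus strand: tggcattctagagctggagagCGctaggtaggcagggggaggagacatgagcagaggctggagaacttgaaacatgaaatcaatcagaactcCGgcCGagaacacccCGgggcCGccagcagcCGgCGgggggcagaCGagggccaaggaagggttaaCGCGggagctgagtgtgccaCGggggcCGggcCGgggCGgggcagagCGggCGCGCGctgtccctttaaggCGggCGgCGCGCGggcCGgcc
Gna13, chr11:109362544-109362793, plus strand: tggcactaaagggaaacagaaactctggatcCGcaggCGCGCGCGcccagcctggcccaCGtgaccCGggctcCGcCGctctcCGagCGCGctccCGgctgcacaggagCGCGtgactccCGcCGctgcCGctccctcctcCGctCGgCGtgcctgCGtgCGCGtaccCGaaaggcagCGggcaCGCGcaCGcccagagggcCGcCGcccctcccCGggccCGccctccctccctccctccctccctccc
Stc2, chr11:31370062-31370311, minus strand: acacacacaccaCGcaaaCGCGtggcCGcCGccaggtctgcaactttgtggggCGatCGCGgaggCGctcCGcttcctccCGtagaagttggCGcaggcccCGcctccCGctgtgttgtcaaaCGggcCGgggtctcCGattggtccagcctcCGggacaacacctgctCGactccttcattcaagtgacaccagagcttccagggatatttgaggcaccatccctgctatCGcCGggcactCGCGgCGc
Myh3, chr11:67078050-67078299, plus strand: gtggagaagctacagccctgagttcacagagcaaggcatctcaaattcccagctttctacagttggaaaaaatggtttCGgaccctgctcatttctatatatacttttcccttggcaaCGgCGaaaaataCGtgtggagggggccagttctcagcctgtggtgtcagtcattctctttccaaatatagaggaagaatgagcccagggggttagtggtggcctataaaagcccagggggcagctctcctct
The *Prkca* promoter held 39 CG dinucleotides, that of *Gna13* 33 and those of *Axin2* and *Stc2* 24 each. The *Myh3* promoter held 4. The median over the 2289 promoters of chromosome 11 in that table was 8, and over all 32851 promoters it was 6. GC content was 76.8% for *Prkca*, 76.0% for *Gna13*, 69.2% for *Axin2*, 64.4% for *Stc2* and 49.2% for *Myh3*. CAGCTG, a form of the E-box that myogenic bHLH factors can bind and that reads the same on both strands, was absent from all 5 windows. It occurred in 13.0% of all promoter windows of this length and in 13.3% of those on chromosome 11.

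PC1 carried most of the variance of the chromosome 11 block, with 69.2% for myoblasts, 90.3% for myotubes and 86.7% after AraC treatment. Each of these was the highest share among the 19 autosomes. The next was chromosome 2 in each condition, with 55.6%, 79.8% and 74.1%, and the medians of the other 18 autosomes were 38.3%, 71.2% and 62.8%. The second component of chromosome 11 took 2.36%, 1.09% and 1.23%. The size of the share, though not the description of a single dominant pattern, depended on how the block was prepared. With columns also divided by their SD it was 51.2%, 75.6% and 70.6%. With pairs of bins within 2 Mb replaced by column means it was 88.9%, 93.1% and 92.8%. The lower share in myoblasts thus nearly vanished under that setting.

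**Figure D1:**
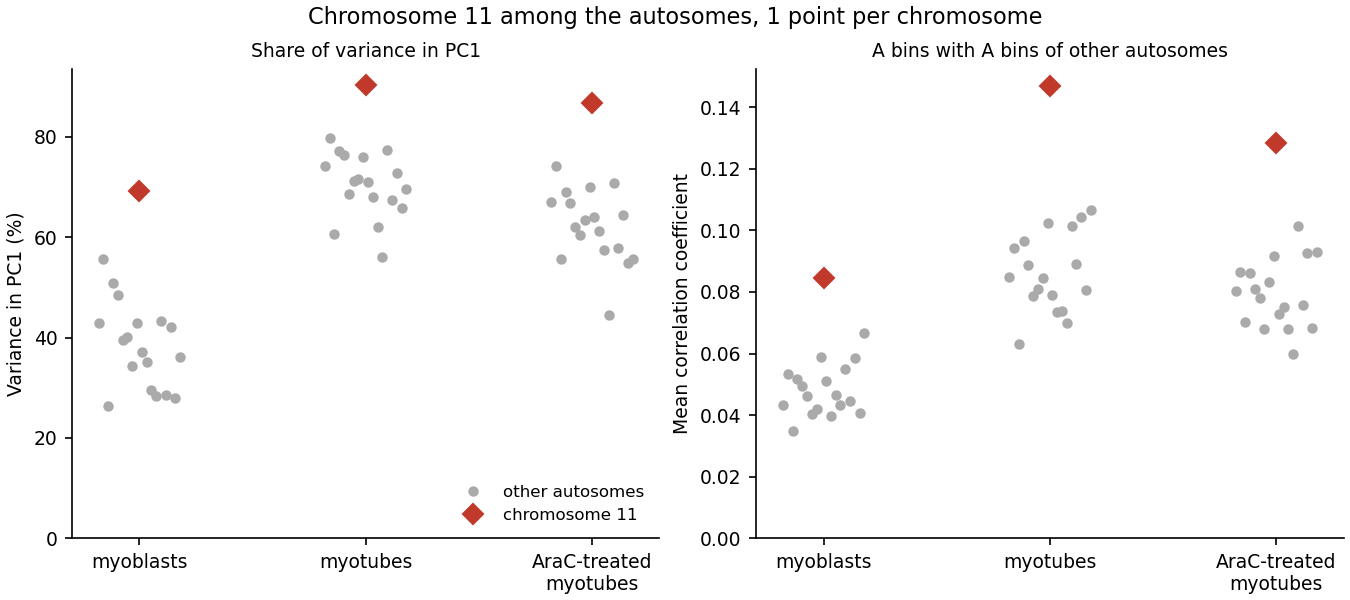
Share of variance carried by PC1 (left, %) and mean correlation coefficient between A bins of a chromosome and A bins of other autosomes (right) in the 3 conditions, 1 point per autosome with chromosome 11 as a red diamond. Chromosome 11 stands above the other 18 autosomes in all 3 conditions on both measures.

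The compartments were close in extent between conditions. The A compartment of myoblasts held 92 of the 237 bins (38.8%), that of myotubes 100 (42.2%) and that of AraC-treated myotubes 104 (43.9%). The exact 95% binomial intervals were 32.6 to 45.3%, 35.8 to 48.8% and 37.5 to 50.5%. These intervals cover counting error only and overlap, but the same bins are counted in each condition and neighbouring bins are not independent. Of the 1631 protein-coding start sites in the members, 68.5% lay in A in myoblasts and 72.3% and 73.6% in both kinds of myotubes. In myoblasts an A bin held 12.2 start sites on average and a B bin 3.54. Over the 237 bins PC1 of myoblasts correlated with that of myotubes at r = 0.982 (Pearson) and with that of AraC-treated myotubes at 0.967. The tracks of both kinds of myotubes correlated at 0.993.

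The compartments were unevenly placed. The chromosome was cut where a long B run ended in all 3 conditions, so a low share of A before the cut was built in. In the centromeric portion, chr11:3500001-51500000, 8 of 96 bins (8.33%) were in A in myoblasts, against 9 in myotubes and 11 after AraC. In the remaining 141 bins toward the telomere, 84 (59.6%), 91 (64.5%) and 93 (66.0%) were in A. Start sites were divided in the same manner, with 3.35 per bin in the centromeric portion and 9.28 in the telomeric one. The correlation of PC1 with position along the chromosome was 0.515, 0.535 and 0.574 over 237 bins. In each condition it was the highest among the 19 autosomes, whose other medians were 0.0100, 0.112 and 0.134.

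**Figure D2:**
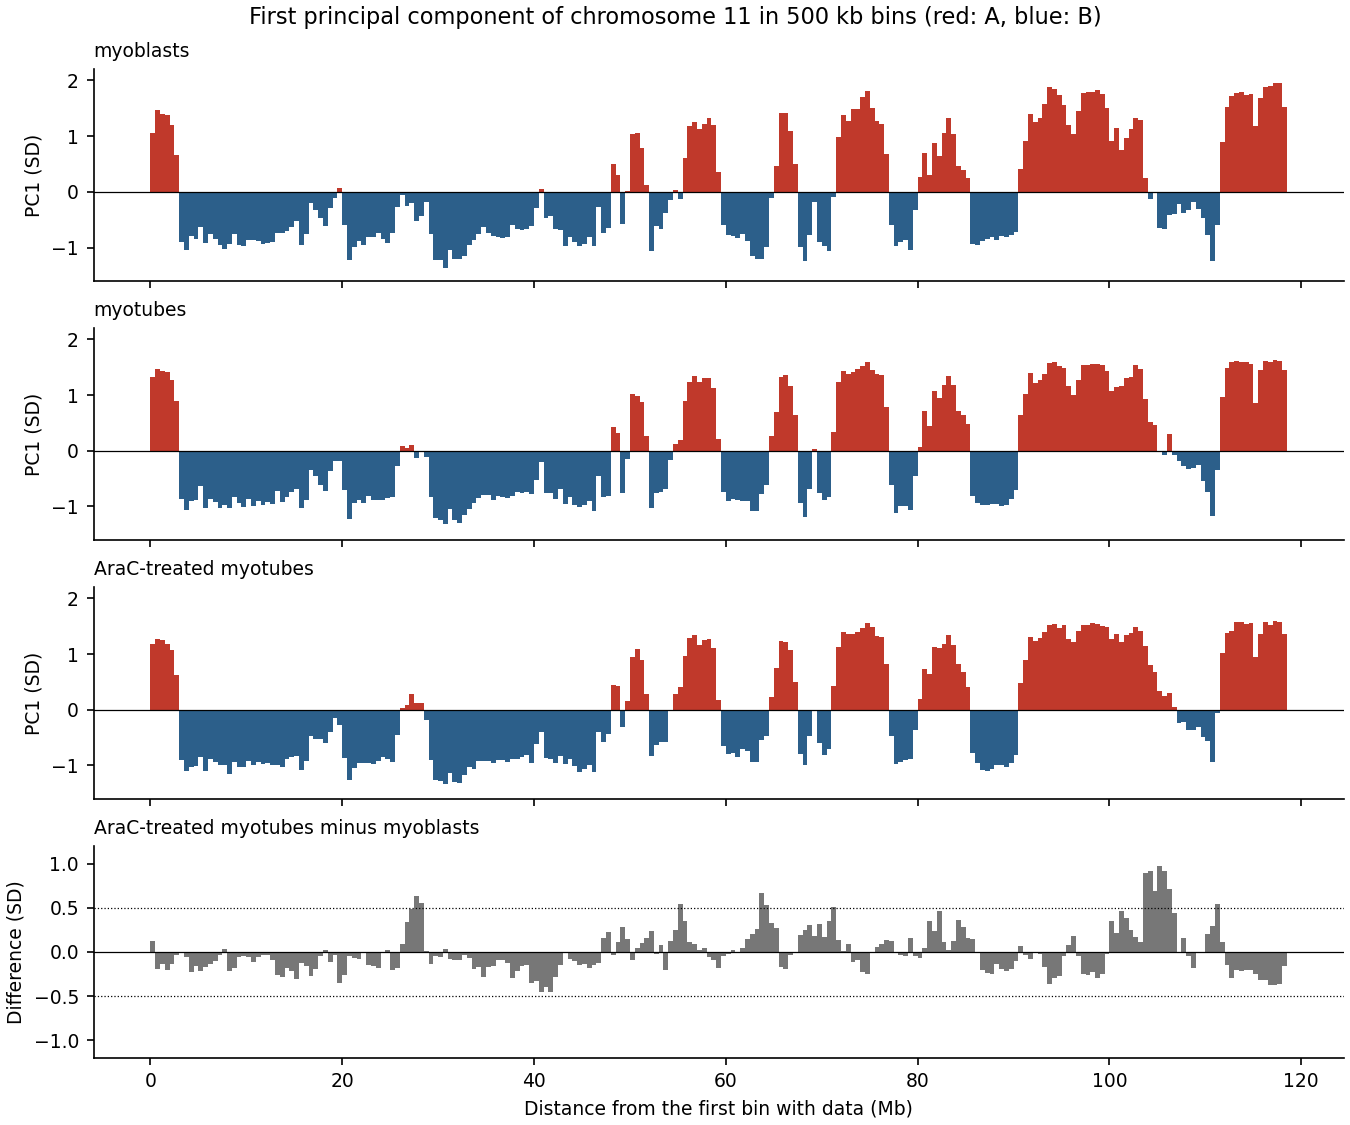
PC1 divided by its SD (y axis) for each 500 kb bin against the distance from the first bin with data (x axis, Mb) in the 3 conditions, and the difference between AraC-treated myotubes and myoblasts in the bottom panel, with dotted lines at 0.5 SD either way. Most A domains (red) and B domains (blue) lie at like places in the 3 tracks, and the tallest cluster of differences stands at the right, beside an A domain.

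Long runs, defined as at least 10 neighbouring bins (5 Mb) of the same compartment, covered 187, 194 and 185 bins in the 3 conditions. Myoblasts had 4 long A runs and 6 long B runs, myotubes 5 of each, and AraC-treated myotubes 5 A and 4 B. Counting runs of any length, the chromosome was divided by 22 compartment borders in myoblasts, 22 in myotubes and 18 after AraC. Of 34 border positions seen in any condition, 12 were shared by all 3, and 15 were shared by both kinds of myotubes.

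The centromeric end opened with a short A domain of 6 bins, chr11:3500001-6500000, with 66 start sites. Its first bin held *Inpp5j*, *Selenom*, *Smtn* and *Morc2a* among 12 start sites, with PC1 of 1.06 SD in myoblasts, 1.32 SD in myotubes and 1.18 SD after AraC treatment. Sets of 3 values of a bin are given in this order throughout. In the bin next to it, *Osm* and *Lif*, cytokines of the interleukin 6 family, stood at 1.46, 1.47 and 1.27 SD. The domain ended between *Purb* and *Ogdh* on its A side (0.666, 0.888 and 0.629 SD) and *Myo1g*, *Ccm2* and *Ramp3* on the B side (−0.899, −0.865 and −0.902 SD). The last A run lies at the far end of the chromosome, and yet the mean correlation of this domain with it was 0.234, 0.429 and 0.318 in the 3 conditions. Its mean correlation with the 6 B bins adjoining it was −0.0101, −0.139 and −0.127. The distant A run thus had higher coefficients with this domain than the neighbouring B bins had.

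Beyond this domain lay a nearly unbroken stretch of B up to chr11:51500000. It comprised 4 segments that stayed B in all 3 conditions. The first, chr11:6500001-23000000, had 33 bins with 61 start sites, 13 bins without any, a median GC content of 40.3% and a mean PC1 of −0.752, −0.820 and −0.877 SD. It held *Ikzf1* (a transcription factor of lymphocytes) at −0.944, −1.04 and −1.16 SD, *Meis1* (a homeobox factor) at −0.957, −1.02 and −1.08 SD, and *Egfr* at −0.736, −0.720 and −0.995 SD. The bin of *Egfr*, *Sec61g* and *Fbxo48* had the largest fall between both kinds of myotubes, by 0.276 SD. The second segment, chr11:23500001-29500000, had 12 bins and contained *Bcl11a* at −1.22, −1.22 and −1.27 SD.

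The third segment, chr11:32000001-44000000, had 24 bins, 57 start sites and the deepest B of the chromosome. The bin of *Lcp2* (a signalling adaptor of T cells), *Foxi1* and *Fam196b* was the lowest of all, at −1.36, −1.32 and −1.33 SD. Next came the bin of *Pank3*, *Rars* and *Wwc1* (−1.21, −1.29 and −1.31 SD) and that of *Ranbp17*, *Gabrp* and *Kcnip1* (−1.23, −1.24 and −1.28 SD). These deep B bins were not the poorest in GC: their GC contents were 45.0%, 46.8% and 45.6%, against a median of 41.8% over the 130 bins that were B in all conditions. The fourth segment, chr11:44500001-51500000, ran from *Ebf1* and *Rnf145* to a bin with *Olfr51*, *Olfr54*, *Clk4* and *Col23a1* and held 93 start sites in 14 bins. Many of these belonged to olfactory receptors.

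From chr11:51500001 onward A and B alternated at a finer scale. Stable long A runs lay at chr11:75000001-80500000, from *Hic1* and *Rpa1* to *Rhot1* and *Atad5*, at chr11:83500001-89000000, from the *Ccl3* bin to *Msi2* and *Trim25*, at chr11:94000001-107500000, from *Tob1* and *Abcc3* to *Bptf* and *Psmd12*, and at chr11:115000001-122000000, from *Cd300e* and *Cd300lf* to *Metrnl* and *Zfp750*. A stable long B run lay before them at chr11:63000001-68000000, from *Pmp22* and *Tekt3* to *Stx8* and *Glp2r*, and another between them at chr11:89000001-94000000, from *Nog* and *Dgke* to *Nme1* and *Spag9*. A further long A run, chr11:58000001-63000000, from *Larp1* and *Igtp* to *Ubb* and *Cenpv*, was reached only in both kinds of myotubes. In myoblasts it was interrupted by the bin of *Hist3h2a* and *Rnf187*, which stood at −0.138 SD and moved to 0.193 and 0.407 SD.

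The richest of these domains was chr11:94000001-107500000, with 381 start sites in 27 bins and a mean PC1 of 1.32, 1.32 and 1.34 SD. The last A run was the strongest in myoblasts, at 1.66 SD, against 1.47 and 1.43 SD later, and its median GC content was 50.4%. The highest PC1 of the chromosome was found there, in the bin of *Fasn* (fatty acid synthase), *Sirt7*, *P4hb* and *Rac3*, at 1.96, 1.63 and 1.59 SD with 28 start sites. The bin of *Foxk2*, *Tbcd* and *Narf* followed at 1.95, 1.61 and 1.58 SD, and that of *Rptor*, *Nptx1*, *Baiap2* and *Chmp6* at 1.89, 1.62 and 1.58 SD. The weakest of the 14 bins of this run over the 3 conditions were its first, at the *Cd300* genes (0.896, 0.970 and 1.01 SD), and the bin of *Rbfox3* and *Enpp7* (1.19, 0.863 and 0.943 SD), which had 2 start sites but the highest GC content of any stable A bin, 51.7%.

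Over the 3 conditions 89 bins were always A, 130 always B and 18 changed at least once. The median GC content was 46.8% in the always-A bins, 41.8% in the always-B bins and 44.0% in those that changed. Medians of the start sites per bin were 11, 2 and 4.5 in that order, and 40 of the 130 always-B bins had none, against 0 of the 89 always-A bins and 0 of the 18 that changed. Ratios of observed to expected CpG had medians of 0.228, 0.172 and 0.207. HindIII sites, on which the assay depends, numbered a median of 136 per always-A bin, 164.5 per always-B bin and 165.5 per changed bin. PC1 of myoblasts correlated with GC content at r = 0.620, with the CpG ratio at 0.682 and with HindIII sites at −0.595, over 237 bins that share neighbours. It correlated at −0.174 with the share of repeats masked in the reference. The part of restriction site density in PC1 was not tested.

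Some bins went against this rule in their number of start sites, though not all of them did so in GC content. Among always-B bins the most start sites, 20, were in the bin of *Trpv1*, *Trpv3*, *Ctns* and *Itgae*, at −0.908, −0.751 and −0.591 SD. The bin of *Tgtp2*, *Ifi47*, *Mgat1* and several *Olfr* genes held 19 at −0.814, −0.896 and −0.999 SD. That of *Slc13a5*, *Mybbp1a* and *Xaf1* held 15 at −0.780, −0.680 and −0.479 SD. At the other end, the always-A bin of *Tbx2* and *Tbx4*, T-box factors of limb and heart development, had 3 start sites at 0.639, 0.956 and 1.10 SD. The bin of *Sec14l1* and *Sept9* also had 3, at 1.78, 1.59 and 1.57 SD.

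Few bins changed compartment. From myoblasts to myotubes 14 of 237 bins changed (5.91%, exact 95% interval 3.27 to 9.71%), and 7.28% of all autosomal bins did. Of these 14, 11 went from B to A, where 2.75% of autosomal bins did so, and 3 from A to B (autosomes, 4.53%). From myoblasts to AraC-treated myotubes 16 changed (6.75%, 3.91 to 10.7%), against 10.2% of autosomal bins. Here 14 went from B to A and 2 from A to B, against 3.72% and 6.49% of autosomal bins. From myotubes to AraC-treated myotubes 6 changed (2.53%, 0.935 to 5.43%), against 5.1% of autosomal bins. Of these, 5 went from B to A and 1 from A to B, against 2.05% and 3.05%. In all 3 pairs the interval of chromosome 11 covered the autosomal share. That interval treats bins as independent, while many changed bins were neighbours, so it cannot show how near both shares are. By its share of changed bins chromosome 11 ranked 15th, 17th and 16th from the highest among the 19 autosomes. More of its bins went from B to A than the reverse, while over all autosomes changes from A to B were the more frequent. Any 2 of these pairs have a matrix in common.

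The changed bins lay near PC1 of 0. When bins in the lowest 20% of absolute PC1 in either condition were left out, 0 changed in each pair. With the columns of the block not centred, which moved the dividing line down to about −0.297, −0.222 and −0.333 SD of the centred PC1, 12, 17 and 5 bins changed, of which 2, 7 and 0 were among those named here. For each region the size of its move is therefore given beside the sign.

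By size, 5 bins rose by at least 0.5 SD from myoblasts to myotubes (2.11%, against 3.83% of autosomal bins) and 0 fell as far (autosomes, 2.98%). From myoblasts to AraC-treated myotubes 13 rose (5.49%, against 7.07%) and 0 fell (autosomes, 5.9%). From myotubes to AraC-treated myotubes 0 rose and 0 fell, against 2.16% and 0.381%. This split between rises and falls depended on the scale. With PC1 divided by its median absolute deviation instead of its SD, 10 rose and 20 fell from myoblasts to myotubes, and 20 rose and 21 fell to AraC-treated myotubes. Of those 20 and 21 bins that fell, 20 in each case were always A, with 9 and 10 of them in the last A run. The median absolute deviation was 0.788 SD in myoblasts, 0.929 SD in myotubes and 0.928 SD with AraC. No autosomal shares are given on that scale, so these counts cannot be set against a background. Under either scale the tallest A bins of myoblasts lay lower in myotubes relative to the rest, and the bins near *Prkca* lay higher.

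The largest rises formed a single region at the telomeric edge of the longest A run. In myoblasts that run ended at chr11:107500000. It reached chr11:109000000 in myotubes and chr11:110500000 in AraC-treated myotubes. The last bin that was A throughout, with *Bptf* (a subunit of the NURF chromatin remodeller), *Nol11*, *Pitpnc1* and *Psmd12*, stood at 0.248 SD in myoblasts, 0.936 SD in myotubes and 1.14 SD in AraC-treated myotubes. The 6 bins that followed, chr11:107500001-110500000, were B in myoblasts and A in AraC-treated myotubes, with mean PC1 of −0.381, 0.185 and 0.397 SD in the 3 conditions. They held 25 start sites.

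The bin of *Helz* and the calcium channel gamma subunits *Cacng1*, *Cacng4* and *Cacng5* went from −0.124 SD in myoblasts to 0.519 in myotubes and 0.798 in AraC-treated myotubes. *Cacng1* encodes the gamma subunit of the L-type calcium channel of skeletal muscle. The next bin, with *Apoh*, *Prkca* and *Cep112*, went from −0.0258 to 0.457 and 0.669 SD. The bin of *Axin2*, its only protein-coding start site, went from −0.644 to 0.00171 and 0.328 SD, a rise of 0.973 SD from myoblasts to AraC-treated myotubes that was the largest on the chromosome. In myotubes this bin therefore stood at the dividing line.

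The bin of *Gna13*, *Rgs9*, *Amz2*, *Arsg* and *Slc16a6* went from −0.666 to −0.0815 and 0.251 SD. It was 1 of 2 bins of the region that were still B in myotubes. The bin of *Prkar1a* (a regulatory subunit of protein kinase A), *Wipi1*, *Fam20a* and *Abca8b* went from −0.425 to 0.296 and stayed at 0.294 SD, and its rise of 0.721 SD was the largest from myoblasts to myotubes. The last of the 6, with *Abca5*, *Abca6*, *Abca8a*, *Abca9* and *Map2k6*, went from −0.400 to −0.0820 and 0.0418 SD. Beyond it *Kcnj16* stayed in B at −0.225, −0.176 and −0.236 SD. All 7 bins from *Bptf* to *Map2k6* were higher in both kinds of myotubes than in myoblasts, and the *Prkar1a* bin was the only one of them not higher in AraC-treated than in day 3 myotubes.

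Which of them counted as changed depended on the setting. With columns divided by their SD, 2 rather than 4 had changed in myotubes and 4 rather than 6 in AraC-treated myotubes. With uncentred columns the same 6 bins rose too, but the first 2 were already above 0 in myoblasts (0.141 and 0.236 SD) and the other 4 crossed 0 by day 3. With other autosomes as the only partners, all 6 changed between myoblasts and AraC-treated myotubes. In the block itself the coefficients of these bins moved as follows. The 6 bins and the A run before them had a mean correlation of −0.00600 in myoblasts, which became 0.128 in myotubes and 0.173 with AraC. With 8 B bins after them, it was 0.0678, 0.0207 and 0.0214. With always-A bins over 10 Mb away it was −0.0159, 0.109 and 0.141, and with always-B bins that far away 0.00460, −0.0188 and −0.0368. These are means of coefficients whose spread differed between conditions, so their sizes are not compared here.

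**Figure D3:**
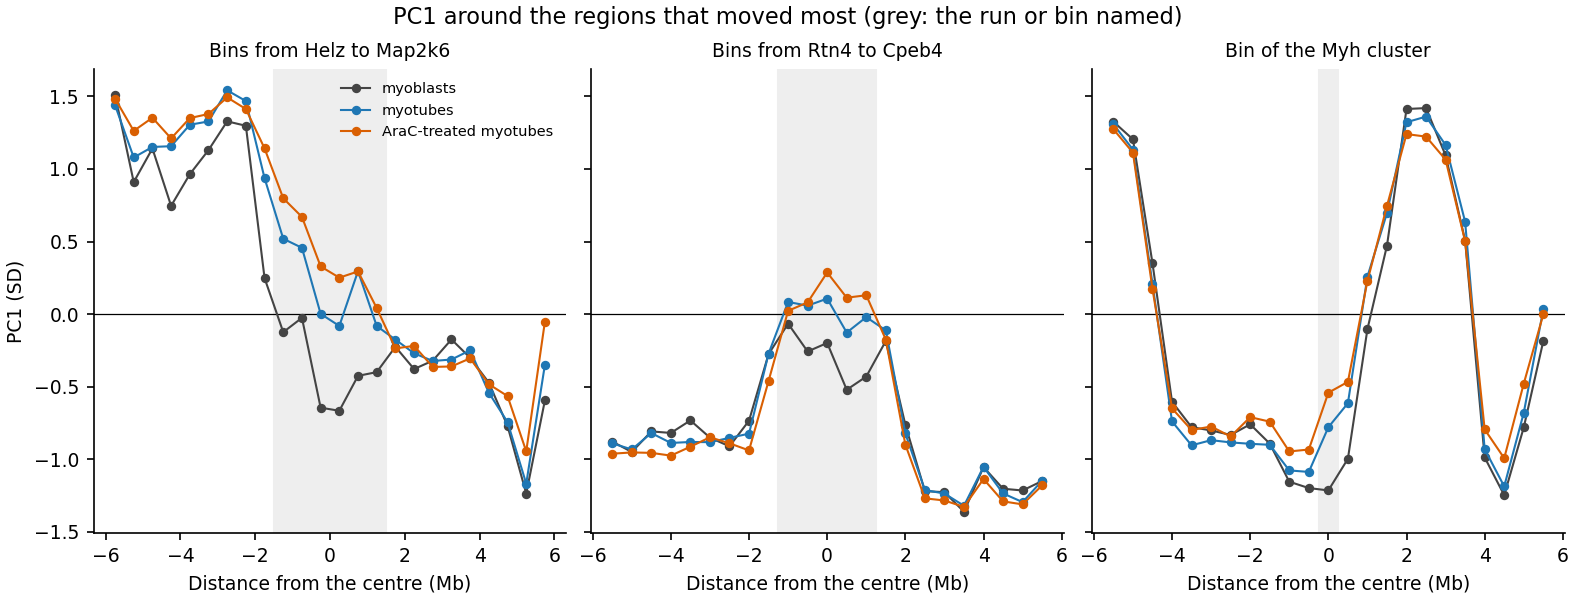
PC1 divided by its SD (y axis) in 500 kb bins within 6 Mb of 3 regions (x axis, distance from the centre of the region in Mb), 1 line per condition, with the region in grey. The left panel shows the 6 bins whose mean rose from −0.381 SD in myoblasts to 0.185 and 0.397 SD, the middle panel the 5 bins near *Stc2*, and the right panel the *Myh* bin, which rose but stayed below 0.

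A smaller run lay inside the centromeric B stretch. In its 5 bins, chr11:29500001-32000000, mean PC1 went from −0.295 SD in myoblasts to 0.0201 SD in myotubes and 0.127 SD with AraC. The first 3 bins changed to A by day 3 and the other two only in AraC-treated myotubes. The bin of *Rtn4*, *Rps27a*, *Mtif2* and *Prorsd1* went from −0.0660 to 0.0836 and 0.0226 SD. That of *Sptbn1* (a spectrin) and *Eml6* went from −0.257 to 0.0582 and 0.0807 SD, and that of *Psme4*, *Acyp2*, *Asb3*, *Gpr75*, *Erlec1* and *Chac2* from −0.199 to 0.107 and 0.287 SD. The *Stc2* bin went from −0.521 to −0.127 and 0.113 SD, and the bin of *Cpeb4* (a regulator of mRNA polyadenylation) and *Bod1* from −0.430 to −0.0209 and 0.130 SD.

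The 5 values in myotubes ranged from −0.127 to 0.107 SD, close to the dividing line. With uncentred columns 3 of the 5 bins were above 0 in all conditions and only the other two changed. Its bins correlated with the B bins before them at 0.0396 in myoblasts and −0.0123 and −0.0290 later, and with the last A run of the chromosome at 0.00419, 0.0641 and 0.0842. The bin that bordered it, with the alpha globin genes *Hba-a1* and *Hba-a2* and the neighbouring *Nprl3*, stayed in B at −0.185, −0.112 and −0.176 SD. Between the *Helz* to *Map2k6* bins and these 5, which lie far apart, the mean correlation went from 0.00128 in myoblasts to 0.0440 and 0.0598.

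The bin of the *Myh* cluster moved far without changing compartment. It holds the start sites of *Myh1*, *Myh2*, *Myh3*, *Myh4*, *Myh8* and *Myh13*, the heavy chains of sarcomeric myosin, and of *Gas7*, *Sco1*, *Adprm* and *Tmem220*. PC1 there went from −1.21 SD in myoblasts to −0.779 SD in myotubes and −0.541 SD with AraC. It ranked 7th of 237 bins in its rise both from myoblasts to myotubes (by 0.435 SD) and to AraC-treated myotubes (by 0.673 SD). Both neighbours toward the telomere rose with it. The bin of *Glp2r*, *Dhrs7c*, *Usp43* and *Stx8* went from −0.997 to −0.614 and −0.467 SD, and that of *Ntn1* and *Pik3r5* from −0.104 to 0.258 and 0.228 SD, which took it into A. On the other side, the bin of *Pirt* and *Shisa6* rose by 0.111 and 0.265 SD, and that of *Dnah9* beyond it by 0.0776 and 0.208 SD.

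In its coefficients themselves, which were not divided by the SD, the *Myh* bin did not move steadily. With always-A bins over 10 Mb away the mean coefficient was −0.0943, −0.0983 and −0.0268 in the 3 conditions, and with always-B bins 0.0801, 0.0947 and 0.0518. The spread of all coefficients with other autosomes, as an SD, was 0.0593, 0.116 and 0.0966 in the 3 conditions. The rise of the *Myh* bin by day 3 was thus a rise relative to a wider spread of coefficients, whereas that in AraC-treated myotubes was present in both measures.

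Single bins made up the rest of the changes. The bin of *Mnt*, *Pafah1b1*, *Srr* and *Tsr1* went from −0.0958 SD to 0.332 and 0.418 SD and joined the A run next to it. The bin of *Atp2a3*, *Ankfy1* and *P2rx1* stood at −0.186, 0.0322 and −0.00212 SD. Among the bins that went from A to B, that of *Xpo1*, *Usp34*, *Ahsa2* and *Fam161a* stood at 0.0734, −0.177 and −0.276 SD, and that of *Il12b* (a subunit of interleukins 12 and 23) and *Ublcp1* at 0.0560, −0.196 and −0.399 SD. Both were single A bins within B in myoblasts. The bin of *Hspa4*, *Aff4* and *Uqcrq* stood at 0.0171, −0.146 and 0.165 SD.

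The largest falls were small beside the rises. From myoblasts to AraC-treated myotubes the bin of *Il12b* fell most, by 0.455 SD. It was followed by 2 bins next to it: one without a protein-coding start site, from −0.431 to −0.758 and −0.881 SD, and that of *Ebf1*, a factor of B cells and adipocytes, from −0.468 to −0.752 and −0.862 SD. From myoblasts to myotubes the largest fall, by 0.335 SD, was in the A bin of *Foxk2*, and other large ones were at *Fasn* (by 0.327 SD), at *Rbfox3* (by 0.324 SD) and at *Gria1*, a glutamate receptor gene in B (by 0.306 SD). The bin of *Actg1*, the cytoplasmic gamma actin, fell by 0.374 SD from myoblasts to AraC-treated myotubes, from 1.89 to 1.60 and 1.52 SD.

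Between both kinds of myotubes the changes were smaller. The bin of *Fstl4* rose most, from −0.751 to −0.303 SD, after a value of −0.586 SD in myoblasts, so it fell and then rose. The bin of *Clk4* and *Olfr51* followed the same order, with −0.656, −0.819 and −0.430 SD. The *Gna13* bin was the next. The largest falls besides that of *Egfr* were in the first A domain of the chromosome, at *Ogdh* and *Purb* (by 0.259 SD) and at *Ewsr1*, *Kremen1* and *Znrf3* (by 0.234 SD).

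Interaction profiles within the chromosome were compared bin by bin, as the Pearson correlation of a bin's coefficients with all other members between conditions. Its median over the 237 bins was 0.942 from myoblasts to myotubes and 0.925 to AraC-treated myotubes. Both kinds of myotubes had a median of 0.981 with each other. Each was the highest among the 19 autosomes, and the medians over all autosomal bins were 0.877, 0.839 and 0.947. Profiles correlated below 0 in 7 bins (2.95%, against 3.26% of autosomal bins), 9 bins (3.80%, against 5.8%) and 1 bin (0.422%, against 1.16%).

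From myoblasts to myotubes the lowest profile correlations were at *Axin2* (−0.525), at *Cpeb4* and *Bod1* (−0.442) and at *Stc2* (−0.405). From myoblasts to AraC-treated myotubes they were at *Stc2* (−0.725), *Axin2* (−0.625) and *Cpeb4* (−0.574). With bins of other autosomes as partners the *Axin2* bin had −0.546 and −0.620 and the *Stc2* bin −0.201 and −0.451. The *Bptf* bin, which rose by 0.894 SD to AraC-treated myotubes, was A throughout and had a profile correlation of 0.901.

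The only bin below 0 between both kinds of myotubes, at −0.476, was that of *Rpl38* (a protein of the large ribosomal subunit), *Ttyh2*, *Kif19a* and the *Cd300* receptors *Cd300a*, *Cd300lb*, *Cd300c* and *Cd300ld*. PC1 of this bin went from −0.594 SD in myoblasts to −0.348 and −0.0513 SD. It lies at the border of the last A run, whose first bin holds 7 further *Cd300* genes at 0.896 to 1.01 SD. Its mean correlation with always-A bins over 10 Mb away was −0.0391, −0.00172 and 0.0639. The bins of *Il12b* and of *Kcnj2* were next, at 0.284 and 0.296.

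**Figure D4:**
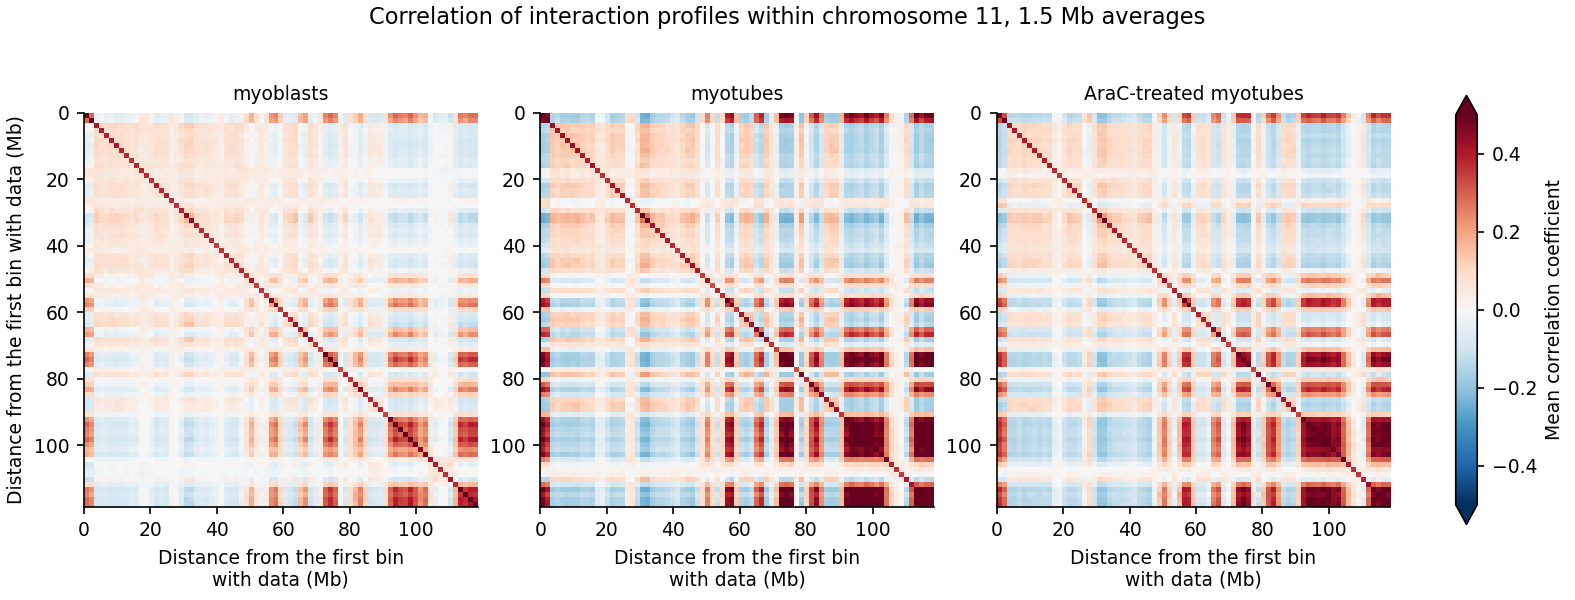
Correlation coefficients within chromosome 11 in the 3 conditions, averaged over squares of 3 bins by 3 bins, with distance from the first bin with data on both axes (Mb) and colours limited to the range from −0.5 to 0.5. The plaid of A and B domains is similar in the 3 panels and its contrast is lowest in myoblasts, where A bins over 10 Mb apart averaged 0.181, against 0.299 and 0.257 in both kinds of myotubes.

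Within the chromosome, A bins over 10 Mb apart had mean coefficients of 0.181, 0.299 and 0.257 in myoblasts and both kinds of myotubes. B bins that far apart had 0.0446, 0.0845 and 0.0634, and pairs of A with B −0.0369, −0.0995 and −0.0826. The A with A means were the highest among the 19 autosomes in every condition, where the next were 0.118 on chromosome 19, 0.141 on chromosome 19 and 0.123 on chromosome 15. The A with B means were the lowest of the 19. For B with B chromosome 11 ranked 8th, 6th and 8th from the highest, so the strength of its plaid lay in its A bins.

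The A bins also had the highest mean correlation with A bins of other autosomes, at 0.0844, 0.147 and 0.128 in the 3 conditions. The medians of the other 18 autosomes were 0.0463, 0.0846 and 0.0792, and the next highest were 0.0667, 0.107 and 0.102. With B bins of other autosomes the A bins of chromosome 11 had −0.0446, −0.108 and −0.0893, the lowest of the 19. Chromosome 11 ranked 2nd for start sites per bin, with 6.88, after 7.18 on chromosome 7, and the part of gene density in these ranks was not tested.

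The partners of its A bins differed in strength. Chromosome 19 had the highest mean with the A bins of chromosome 11 in myoblasts (0.124) and myotubes (0.184), and chromosome 15 in AraC-treated myotubes (0.168). Chromosomes 9 and 17 were 2nd or 3rd in every condition. The lowest were chromosome 3 in myoblasts (0.0576) and myotubes (0.105) and chromosome 14 in AraC-treated myotubes (0.0924). Over the 18 partners the Pearson correlation of this mean with the partner's start sites per bin was 0.561, 0.576 and 0.386, given as a description.

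Among the 1000 strongest pairs of a chromosome 11 bin with a bin of another autosome, each condition weighted equally by its SD, 27 bins of chromosome 11 occurred. In all 1000 pairs both bins were A in the 3 conditions. The pairs and the compartments came from the same matrices, and A with A had the highest mean coefficients between chromosomes. This outcome was therefore close to given by the choice of pairs. The bin of *Fasn* was in 71 of these pairs, more than any other, and that of *Rpl23a* and *Spag5* in 63. Chromosome 15 gave 222 of the partners, chromosome 2 gave 158 and chromosome 17 gave 128. These 3 chromosomes hold 202, 352 and 184 of the 4727 autosomal bins with data. The strongest pair joined the *Fasn* bin to chr10:80500001-81000000, with *Dot1l*, *Lmnb2*, *Gadd45b* and *Amh* among 26 start sites, at 0.433, 0.603 and 0.496. The second joined that bin of chromosome 10 to the bin of *Rpl23*, *Pcgf2*, *Lasp1* and *Psmb3*, at 0.440, 0.586 and 0.493.

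Each bin's preference between chromosomes was taken as its mean correlation with A bins of the other autosomes minus that with their B bins. It had the same sign as PC1 in 220 of 237 bins (92.8%) in myoblasts, then in 224 (94.5%) and 228 (96.2%). All 17, 13 and 9 bins with the opposite sign were in B, with PC1 no farther from 0 than 0.329, 0.273 and 0.303 SD. The median shares of bins with the same sign on the other 18 autosomes were 96.0%, 95.3% and 96.5%. Chromosome 11 was thus slightly below those medians in each condition. Over 237 bins the preference correlated with PC1 at r = 0.998, 0.997 and 0.997. Both measures rest on the same interaction profile of a bin, so they are not independent readouts.

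The preference of the 6 bins from *Helz* to *Map2k6* averaged −0.0186 in myoblasts and then 0.0912 and 0.118. That of the 5 bins from *Rtn4* to *Cpeb4* averaged 0.000893, 0.0641 and 0.0889. In the *Myh* bin it was −0.0722, −0.0920 and −0.0349, and in the *Rpl38* bin −0.0293, −0.00901 and 0.0477.

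Averaged over all bins of other autosomes regardless of compartment, correlations were close to 0. As means over the 3 conditions they were highest for deep B bins. Most bins of the other autosomes were B in each condition, so such an order was partly given by the measure. The *Lcp2* bin had 0.0136, 0.0354 and 0.0196 and the *Slit3* bin 0.0119, 0.0318 and 0.0191. That of *Npm1*, *Fgf18* and *Tlx3* had 0.0120, 0.0316 and 0.0185. In myoblasts alone the always-A bin of *Rbfox3* and *Enpp7* was higher than these, at 0.0161. The lowest averages over the 3 conditions belonged to A bins. These were the bin of *Grb2*, *Sumo2* and *Nup85* (−0.000586, −0.0256 and −0.0181), that of *Ncor1* and *Adora2b* (0.000704, −0.0249 and −0.0171) and that of *Trp53*, *Polr2a* and *Chrnb1* (−7.69e-05, −0.0253 and −0.0158).

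**Figure D5:**
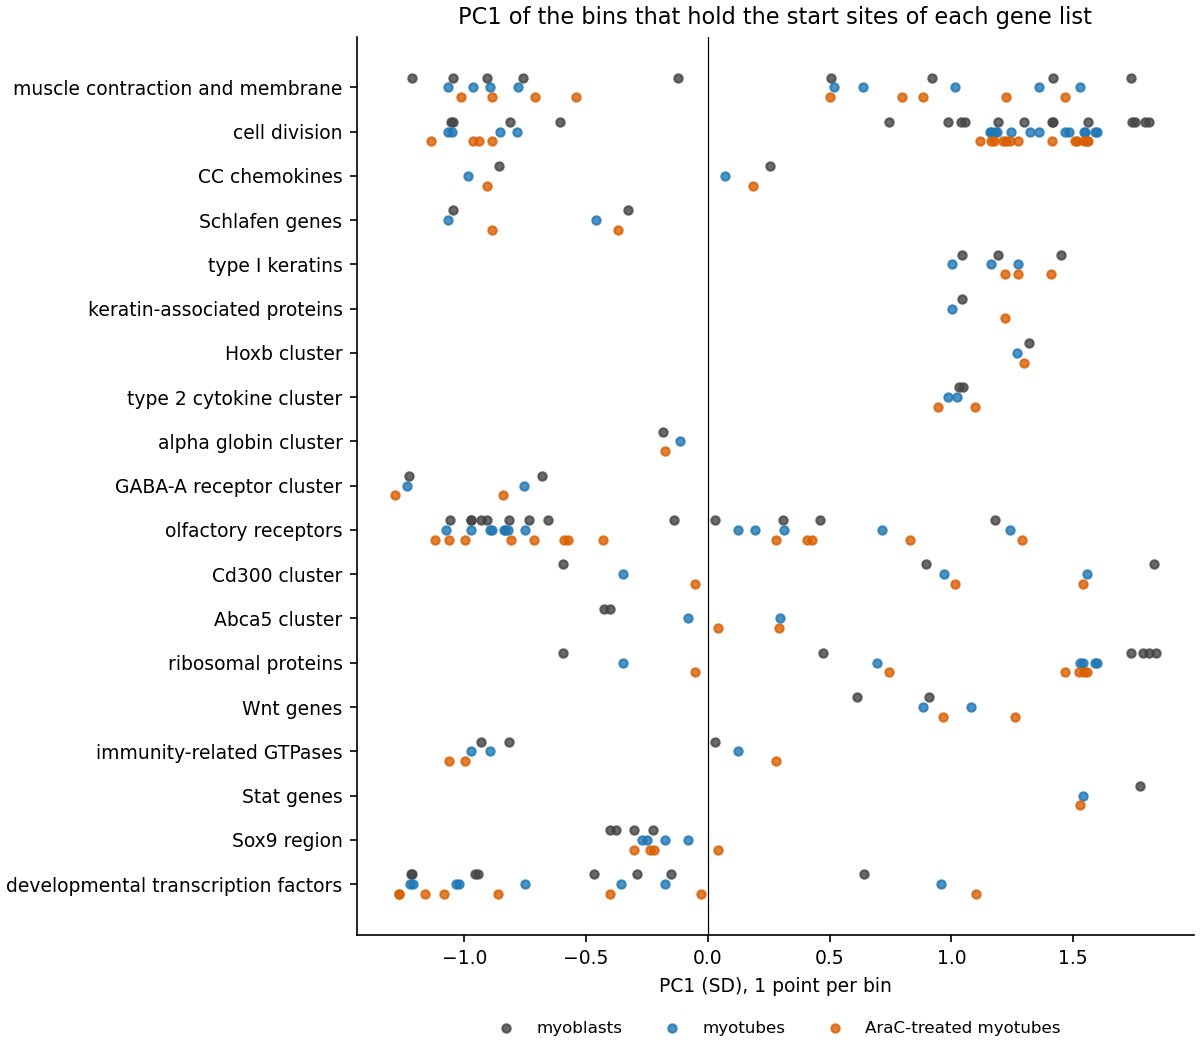
PC1 divided by its SD (x axis) of the bins that hold the start sites of 19 gene lists (rows), 1 point per bin and colour per condition. Keratin, *Hoxb*, *Stat*, *Wnt* and cytokine bins lie in A and GABA-A receptor and Schlafen bins in B in every condition, while the *Abca5* cluster crosses 0.

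Genes of 19 lists placed on the chromosome by textbook knowledge were located by start site, 259 list entries in all. Genes of 1 list often share a bin and then 1 value. Of 16 genes of muscle contraction and the muscle membrane, 6 lay in bins that were always A, 9 in always-B bins, 6 of them in the *Myh* bin, and 1, *Cacng1*, in a bin that changed. Of all 1631 start sites of the members, 1101 lay in always-A bins, 418 in always-B bins and 112 in bins that changed. The A genes were *Tcap* (titin cap) and *Cacnb1* at 1.74, 1.53 and 1.47 SD, *Sgca* (alpha sarcoglycan) at 0.921, 1.02 and 0.885 SD, the acetylcholine receptor subunits *Chrnb1* and *Chrne*, and *Eno3* (muscle enolase) at 0.506, 0.636 and 0.502 SD. The B genes were the 6 *Myh* genes, *Sgcd* (delta sarcoglycan) at −0.907, −0.965 and −1.01 SD, *Unc45b* (a myosin chaperone) at −1.04, −1.07 and −0.886 SD and *Myocd* at −0.759, −0.893 and −0.710 SD. Muscle genes thus lay in both compartments, and of those in B only the *Myh* bin rose by at least 0.5 SD in AraC-treated myotubes.

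Of 19 genes of cell division and DNA repair, 15 lay in always-A bins, 4 in always-B bins and 0 in bins that changed, a division near that of all 1631 start sites given above. *Top2a* stood at 1.19, 1.16 and 1.27 SD, *Aurkb* at 1.41, 1.32 and 1.24 SD, *Birc5* and *Tk1* at 1.74, 1.60 and 1.54 SD, and *Brca1* at 1.79, 1.55 and 1.56 SD. *Pttg1* (securin) at −0.606, −0.784 and −0.963 SD, *Hmmr* at −0.812, −0.855 and −0.938 SD, *Spdl1* at −1.05, −1.05 and −1.14 SD and *Rad51d* at −1.04, −1.07 and −0.886 SD were in B. The bin of *Cdc27* and *Myl4* rose within A, from 0.746 to 1.16 and 1.21 SD.

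Some clusters of related genes lay wholly in 1 compartment. The keratin-associated proteins, the *Hoxb* genes, the *Stat* genes and the alpha globin cluster each had 1 bin, so they could not be divided. The 24 type I keratins in 3 bins and the 23 keratin-associated proteins in 1 of those bins were always in A, at 1.00 to 1.45 SD. So were the 10 *Hoxb* genes in 1 bin (1.32, 1.27 and 1.30 SD), the 7 genes of the type 2 cytokine cluster with *Il4*, *Il5* and *Il13* (0.944 to 1.10 SD), *Stat3*, *Stat5a* and *Stat5b* (1.78, 1.54 and 1.53 SD) and the 4 *Wnt* genes (0.612 to 1.26 SD). The 5 GABA-A receptor genes (−1.28 to −0.679 SD), the 8 Schlafen genes (−1.07 to −0.326 SD) and the 6 genes of the alpha globin cluster were always in B.

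Other clusters were divided. For comparison, of all 1631 start sites of the members 1101 lay in always-A bins, 418 in always-B bins and 112 in bins that changed. Of 11 CC chemokines, *Ccl1*, *Ccl2*, *Ccl7*, *Ccl8*, *Ccl11* and *Ccl12* shared a B bin at −0.858, −0.984 and −0.908 SD, and *Ccl3*, *Ccl4*, *Ccl5*, *Ccl6* and *Ccl9* shared an A bin at 0.257, 0.0722 and 0.188 SD. Among immunity-related GTPases, *Irgm1*, *Tgtp1* and *Tgtp2* were in B and *Igtp* and *Irgm2* in A at 0.0287, 0.122 and 0.278 SD. Of 82 olfactory receptors in 13 bins, 54 were always in B, 9 always in A, and 19 in the *Hist3h2a* bin, which changed. Of 6 ribosomal protein genes 5 were always in A, and *Rpl38* was in B. The 5 genes of the *Abca5* cluster all lay in bins that changed from B to A. Near *Sox9*, where B was shallow, *Sox9* stood at −0.301, −0.249 and −0.305 SD and *Map2k6* was the only 1 of 4 genes to change. Of 9 developmental transcription factors, *Tbx2* and *Tbx4* were in A and the other 7 in B, *Hand1* nearest to 0 at −0.150, −0.174 and −0.0297 SD.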

How the data were processed

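Hi-C was measured in 6 libraries, 2 for each of 3 conditions. The authors mapped read pairs with HiCUP and Bowtie, pooled both replicates and made 1 matrix per condition in HOMER at 500 kb (mm10). The deposited values are a score, the correlation coefficient between the normalized interaction profiles of 2 bins. They carry no depth, so no limits from read counts could be given. Groups followed the sample labels. Start sites came from GENCODE vM21, bases and promoters from RefSeq GRCm38.p6. PC1, its sign, runs, profile correlations and the preference between chromosomes were computed with NumPy 2.4.6 and SciPy 1.17.1 under Python 3.11.15 and tested on simulated data. Shares were read against all autosomal bins. Alternatives changed the centring, scaling, partner bins, thresholds and near pairs. Bins named were the ends of long runs, runs of at least 2 changed bins, the 5 largest rises and falls (3 between both kinds of myotubes), the 3 lowest profile correlations and the 3 extremes of PC1 and of the mean with other autosomes. Other bins were picked with their values in view. The bins and the gene lists were chosen with earlier results of these data known. Chromosomes X and Y were not used.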

Additional observations from a re-analysis of the deposited data

How the results depend on the processing

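Of 171 values recomputed under the alternatives, 145 stayed within 1.5 times the reported count, within the interval of the reported share, or within the spread over bins. Counts of 0 that stayed at 0 are among the 145. For counts, the number of bins was compared and not which bins they were. Without centring, the counts of changed bins stayed within that limit, yet only 2, 7 and 0 of the bins were shared. Without centring, A in myoblasts was 46.8%, and 1 bin rose between both kinds of myotubes, as it did with other autosomes as the only partners. Runs of at least 20 bins covered 101, 117 and 118 bins. Without the lowest 20% of absolute PC1, 0, 0 and 0 bins changed. With the median absolute deviation, 10 bins rose and 20 fell to myotubes, and 20 rose and 21 fell to AraC-treated myotubes. At 0.3 SD, 19 rose and 5 fell to myotubes, 27 rose and 13 fell to AraC-treated myotubes, and 5 rose between both kinds of myotubes. At 1 SD, 0 rose in either comparison with myoblasts. The counts of rises and falls on another scale or at another size stand here without an autosomal share. Profiles below r of 0.2 numbered 14 between myoblasts and AraC-treated myotubes. The share of variance in PC1 was 51.2%, 75.6% and 70.6% with scaled columns, and 88.9%, 93.1% and 92.8% with pairs within 2 Mb replaced. The cause of these differences was not tested. No paired analysis was possible because both replicates were pooled before deposit, and for the same reason no replicate could be left out.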
